A study of Mus musculus with 4 samples.

Results

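The genes examined make cholesterol and fatty acids. They were 27 genes chosen by symbol: the enzymes from acetyl-CoA to cholesterol, the sterol-sensing regulators that switch them on, a sterol carrier, and the enzymes of fatty acid synthesis, desaturation and elongation. Of these, 23 had a probe set assigned to that gene alone, among 17097 genes on the array. Srebf1, Acat2, Pmvk and Scd2 had none and were not analysed here. Where a gene had several probe sets, the one brightest on average across the 4 arrays stands for it. RNA came from lymph node B cells of 2 miR-146a transgenic (TG) mice and 2 wild type (WT) mice, all male Balb/C animals aged 6 to 8 weeks, with 1 Affymetrix array per mouse. The labels say that B cells were enriched by magnetic removal of other cells and that dead cells were removed, and they do not name the promoter or the cells that drive the transgene. Nothing ties the mice to litters or days, so an effect of either on a group cannot be told apart from the genotype. The p-values set the difference between groups against the spread between the 2 mice within each group, moderated over all probe sets.

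The transgene over-expresses a microRNA whose main product, shown to identify it, is printed with its seed (bases 2 to 8, the part that pairs with targets) in capitals, from RefSeq (GRCm38.p6, chr11:43374435-43374456, minus strand). No probe set carried the microRNA itself, so its level was not measured here.
mmu-miR-146a-5p: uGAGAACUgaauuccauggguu

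Cells make cholesterol from acetyl-CoA through mevalonate, squalene and lanosterol. When membrane sterol is low, the escort protein Scap carries the membrane-bound transcription factors SREBP to the Golgi, where proteases release their active part. Srebf2 encodes the SREBP best known for cholesterol genes and Srebf1 the one best known for fatty acid genes. When sterol is plentiful, Insig proteins hold Scap in the endoplasmic reticulum. Lymphocytes are known to raise this pathway when they grow and divide, and resting cells keep it low.

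The deposited values are log2 signals, so a difference of 1 is a doubling of signal. The array of TG mouse 1 had a lower upper quartile (6.13) than that of TG mouse 2 (6.51) and the WT arrays (6.54 and 6.55). The hybridization controls, bacterial and phage transcripts added to each hybridization in fixed amounts by the standard procedure, were also lower on the TG arrays. Their mean over 18 probe sets was 8.71 and 9.07 on the TG arrays, against 9.27 and 9.40 on the WT arrays, and none of the 18 overlapped. Non-specific control probe sets with 10 to 20 G or C bases averaged 2.95 and 2.85 on the TG arrays and 2.83 and 2.84 on the WT arrays, and the brightest reached 3.57, a level taken here as the background ceiling. How these array differences bear on single genes was not tested beyond the scalings given with the results.

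The question was whether the synthesis genes differed between TG and WT B cells. On the deposited scale the median difference of the 23 genes was -0.51, a 1.43-fold lower signal. Differences were below 0 for 21 of the 23, and for 10299 of all 17097 genes. Of the 23, 15 lay below 0 after quantile normalization and 14 centred on the hybridization controls. The direction depends on the scale: the median was -0.32 after quantile normalization, -0.07 when arrays were centred on the hybridization controls, and 0.42 when they were centred on B cell marker genes. The median of all genes moved with it, and was -0.05 as deposited, 0.02, 0.39 and 0.89 under these scalings. Set against the median of all genes, the synthesis genes lay 0.46 lower as deposited and under both centrings, where a constant is added to each array, and 0.34 lower after quantile normalization. With dim probe sets filtered out (21 genes kept), their median minus that of all genes was -0.39. It was -0.30 without TG mouse 1 and -0.51 without TG mouse 2. The median gap of the 23 genes to the WT mean was -0.65 for TG mouse 1 and -0.29 for TG mouse 2. Over all genes the median gap was -0.14 for TG mouse 1 and 0.01 for TG mouse 2.

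No synthesis gene passed limma at an adjusted p of 0.05 on the deposited scale, where 0.0466% of all probe sets did (0.00888% as lower and 0.0377% as higher). Counting 1 probe set per gene, the share was 0.0468% (0.0117% as lower and 0.0351% as higher). The smallest adjusted p was 0.116 (Sqle), and 13 of 23 genes had an unadjusted limma p under 0.05, against 14.1% of all genes. In 14 of 23 genes both TG values lay below both WT values, and in 1 gene both lay above. Over all genes 31.4% had both TG values below, and 17.7% both above. Among genes above a log2 signal of 4.10 the shares were 37.9% and 15.2%, but Hmgcs1 and Lss, both among the 14, lie under that level (3.86 and 3.94). A signal at least 1.5-fold lower was seen for 9 of the 23 genes, Hmgcs1 and Lss included, and for 4.79% of all genes.

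**Figure D1:**
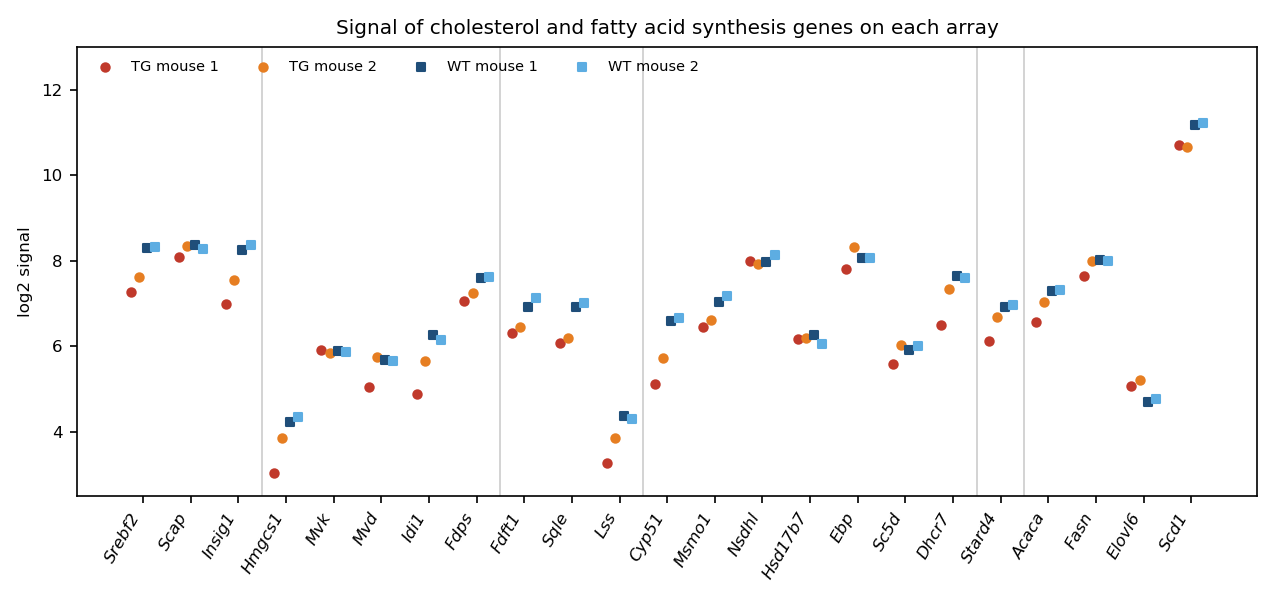
Log2 signal (vertical axis) of the 23 synthesis genes on each array, TG mice as circles left of WT mice as squares, with vertical lines between regulators, mevalonate enzymes, squalene and lanosterol enzymes, later sterol enzymes, the sterol carrier Stard4 and fatty acid enzymes. On this deposited scale Srebf2, Insig1, Idi1, Sqle and Cyp51 have both TG points below both WT points, Mvk, Nsdhl and Hsd17b7 overlap, and Elovl6 has both TG points above. Centred on B cell markers, Cyp51 and Insig1 alone stay below 0, and neither passed limma there.

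Among the regulators, Srebf2 and Insig1 were lower on the TG arrays and Scap was not. Srebf2 signal was 7.26 and 7.63 on the TG arrays, against 8.29 and 8.31 on the WT arrays (log2 difference -0.86, SE 0.15, limma adjusted p = 0.168). Insig1, which encodes the sterol-dependent anchor of Scap and is itself a target of SREBP, had 6.99 and 7.54 on the TG arrays, against 8.25 and 8.36 on the WT arrays (difference -1.04, SE 0.21, adjusted p = 0.193). In both genes the TG values lay below the WT values with a gap of more than the WT spread. After quantile normalization both passed limma (Srebf2 -0.68, adjusted p = 0.0364, and Insig1 -0.85, adjusted p = 0.0367), where 1.04% of all probe sets were called lower, and centred on B cell markers Srebf2 differed by 0.08 and Insig1 by -0.10. Scap had 8.10 and 8.35 on the TG arrays and 8.38 and 8.26 on the WT arrays, and the 95% interval of its difference ran from -0.44 to 0.25.

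Of the 5 mevalonate enzymes measured, all differences were below 0 as deposited, 3 without overlap (31.4% of all genes), and none passed limma. Idi1, the isomerase that makes the second isoprenoid building block, had 4.89 and 5.65 on the TG arrays, against 6.25 and 6.14 on the WT arrays (difference -0.93, SE 0.27, limma adjusted p = 0.279). Hmgcs1, the synthase that makes HMG-CoA, had 3.04 and 3.85 on the TG arrays, against 4.22 and 4.33 on the WT arrays (difference -0.83, SE 0.28, adjusted p = 0.33). Its value in TG mouse 1 lay under the background ceiling, so the size of that difference is not well measured. Fdps, which joins isoprenoid units into farnesyl diphosphate, had 7.06 and 7.25 on the TG arrays, against 7.59 and 7.63 on the WT arrays (difference -0.45, SE 0.11, adjusted p = 0.242). These genes had no overlap between groups, and in Idi1 and Hmgcs1 the TG mice were further apart than the WT mice. Centred on B cell markers none of them kept its direction (Idi1 0.009, Hmgcs1 0.11 and Fdps 0.49). Mvk, mevalonate kinase, had 5.91 and 5.84 on the TG arrays and 5.90 and 5.87 on the WT arrays (difference -0.01, 95% interval -0.26 to 0.25). Mvd, the decarboxylase after it in the pathway, had 5.04 and 5.76 on the TG arrays, against 5.68 and 5.65 on the WT arrays, so TG mouse 1 lay below and TG mouse 2 above both WT mice (95% interval -0.92 to 0.40).

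The enzymes from farnesyl diphosphate to lanosterol were all lower on the TG arrays as deposited, without overlap, as were 31.4% of all genes. Sqle, squalene epoxidase and a rate-limiting step of the sterol branch, had 6.08 and 6.18 on the TG arrays, against 6.92 and 7.002 on the WT arrays (difference -0.83, SE 0.10, limma adjusted p = 0.116). It was the 1 synthesis gene past the threshold after median centring (-0.78, adjusted p = 0.0378, with 0.944% of probe sets called lower), and it differed by 0.11 when centred on B cell markers. Fdft1, squalene synthase, had 6.30 and 6.45 on the TG arrays, against 6.92 and 7.12 on the WT arrays (difference -0.65, SE 0.12, adjusted p = 0.186; 0.29 when centred on B cell markers). In Sqle and Fdft1 the TG mice lay close together, unlike in Idi1. Lss, lanosterol synthase, had 3.27 and 3.84 on the TG arrays, against 4.37 and 4.29 on the WT arrays (difference -0.77, SE 0.21, adjusted p = 0.262; 0.17 when centred on B cell markers). As with Hmgcs1, Lss in TG mouse 1 lay under the background ceiling.

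Of the 7 enzymes after lanosterol, 3 were lower without overlap as deposited and 4 overlapped, with none past limma, and no difference between enzymes was tested. Cyp51, lanosterol demethylase, had 5.11 and 5.73 on the TG arrays, against 6.59 and 6.66 on the WT arrays, a 2.30-fold lower signal (difference -1.20, SE 0.22, limma adjusted p = 0.18). It passed limma after quantile normalization (-1.03, adjusted p = 0.0468) and centred on the hybridization controls (-0.76, adjusted p = 0.00446). In the latter fit every synthesis gene had the same SE of 0.207. Centred on B cell markers Cyp51 differed by -0.27 and did not pass limma (adjusted p = 0.151). Msmo1, the methyl sterol oxidase, had 6.46 and 6.61 on the TG arrays, against 7.04 and 7.18 on the WT arrays (difference -0.57, SE 0.12, adjusted p = 0.194). Dhcr7, which makes cholesterol from its last precursor, had 6.50 and 7.33 on the TG arrays, against 7.64 and 7.60 on the WT arrays (difference -0.71, SE 0.29, adjusted p = 0.387), and most of that gap came from TG mouse 1. Msmo1 and Dhcr7 did not keep their direction when centred on B cell markers (0.36 and 0.23).

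The other 4 enzymes of this stretch overlapped between groups. Nsdhl, a sterol dehydrogenase, had 7.98 and 7.92 on the TG arrays and 7.97 and 8.12 on the WT arrays (95% interval of the difference -0.38 to 0.19). Hsd17b7, the keto-reductase of the same complex, had 6.16 and 6.18 on the TG arrays and 6.26 and 6.05 on the WT arrays (95% interval -0.30 to 0.32). Ebp, a sterol isomerase, had 7.79 and 8.32 on the TG arrays and 8.07 and 8.05 on the WT arrays (95% interval -0.52 to 0.52), with the TG mice on either side of the WT mice. Sc5d, the desaturase before Dhcr7, had 5.57 and 6.02 on the TG arrays and 5.91 and 6.01 on the WT arrays (95% interval -0.63 to 0.30). The widest of these intervals, that of Ebp, allows a difference of 0.52 in either direction, so the data do not show that the 4 enzymes were equal in both groups.

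Stard4, a carrier that moves sterol between membranes, had 6.11 and 6.68 on the TG arrays, against 6.92 and 6.96 on the WT arrays (difference -0.55, SE 0.21, limma adjusted p = 0.37). Its groups did not overlap as deposited, and it differed by 0.39 centred on B cell markers.

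Of the 4 fatty acid enzymes measured, 2 were lower and 1 higher without overlap as deposited, and none passed limma. The shares over all genes were 31.4% lower and 17.7% higher. Centred on B cell markers all 4 lay above 0 and were called higher, as were 93.8% of all probe sets. Scd1, a stearoyl-CoA desaturase that makes monounsaturated fatty acids, had 10.71 and 10.66 on the TG arrays, against 11.17 and 11.22 on the WT arrays (difference -0.51, SE 0.10, limma adjusted p = 0.185). Acaca, acetyl-CoA carboxylase and the committed step of fatty acid synthesis, had 6.57 and 7.04 on the TG arrays, against 7.30 and 7.32 on the WT arrays (difference -0.50, SE 0.18, adjusted p = 0.348). Fasn, fatty acid synthase, had 7.64 and 8.00 on the TG arrays and 8.01 and 7.99 on the WT arrays, and overlapped (95% interval -0.58 to 0.22). Scd1 and Acaca were thus lower without overlap as deposited, and differed by 0.42 and 0.44 centred on B cell markers. Elovl6, which lengthens palmitate to stearate and so supplies Scd1, was the gene with higher signal: 5.06 and 5.21 on the TG arrays, against 4.69 and 4.75 on the WT arrays (difference 0.41, SE 0.11, adjusted p = 0.252). Elovl6 was higher under each of the 5 scalings. The centrings each add a positive constant to every difference, so its sign could not turn under them. After quantile normalization it differed by 0.515 and did not pass limma (adjusted p = 0.0675). It passed limma under 2 of the centrings only. Centred on the hybridization controls it differed by 0.86 (limma adjusted p = 0.00109, with 28.7% of probe sets called higher). The SE of that fit was 0.207 for every synthesis gene. Centred on B cell markers it differed by 1.35 (limma adjusted p = 0.000558, with 93.8% called higher).

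**Figure D2:**
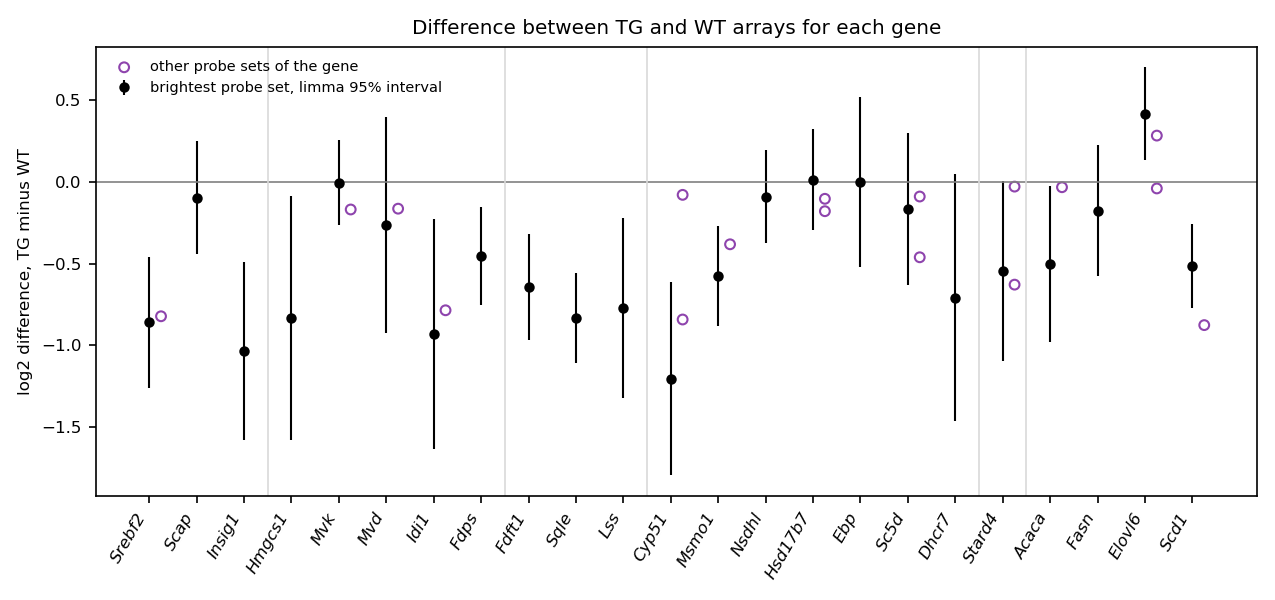
Log2 difference, TG minus WT, on the deposited scale for each of the 23 genes (filled points, brightest probe set, bars the limma 95% interval, n = 2 mice per group), with the genes' other probe sets as open circles. Cyp51 lies lowest at -1.20 and Elovl6 highest at 0.41, and most open circles lie on the same side of 0 as their gene's filled point; centred on B cell markers 21 of the 23 genes lie above 0.

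Of the 23 genes, 12 had further probe sets, 17 in all, and 14 of these 17 had the sign of the gene's brightest one. As 16 of the 17 lay below 0, and 21 of the 23 brightest ones did, a shared sign says little by itself. The second probe sets of Srebf2 (-0.82), Idi1 (-0.79), Cyp51 (-0.84), Stard4 (-0.63) and Scd1 (-0.88) lay on the same side, without overlap. Another probe set of Cyp51 differed by -0.08, but its mean of 3.29 lay under the background ceiling. Another one of Stard4 differed by -0.03 at a mean of 5.19, so the probe sets of this gene disagree. Elovl6 had a second probe set at 0.28 without overlap, and another, dim one at -0.04. For Sc5d, 1 of its 3 probe sets had no overlap (4.11 and 4.35 on the TG arrays, against 4.76 and 4.62 on the WT arrays). Hsd17b7 had 2 other probe sets lower without overlap (-0.18 and -0.10, the second dim), unlike its brightest. Averaging every probe set of a gene gave -0.71 for Cyp51, -0.27 for Acaca and 0.22 for Elovl6, each smaller by more than 1.5 times than the brightest one, and turned Hsd17b7 to -0.09. None of the 40 probe sets of these genes passed limma as deposited.

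The order of the genes within the pathway does not depend on any constant added to an array. Relative to the mean over the 23 genes on the same array, Cyp51 lay at -1.22 and -0.97 on the TG arrays, against -0.38 and -0.33 on the WT arrays. Insig1 lay at 0.66 and 0.85 on the TG arrays, against 1.28 and 1.36 on the WT arrays. Srebf2 lay at 0.93 on both TG arrays and at 1.32 on both WT arrays. These genes lay further below the WT arrays than the pathway mean did, in both TG mice. Elovl6 went the other way, with -1.27 and -1.49 on the TG arrays, against -2.28 and -2.24 on the WT arrays. Nsdhl lay at 1.65 and 1.23 on the TG arrays, against 1.00 and 1.13 on the WT arrays, and Hsd17b7 at -0.17 and -0.52 on the TG arrays, against -0.71 and -0.94 on the WT arrays. These 6 genes were picked after their values were seen, and no difference between genes was tested.

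Promoter sequences were set beside these values. RefSeq windows of GRCm38.p6 were found for 21 of the 27 genes, 18 of them measured, and the 250 bases before the start were searched on both strands. The motifs were TCACNCCAC, a form of the sterol regulatory element bound by SREBP, CCAAT, bound by the partner factor NF-Y, and the E-box CACGTG. No motif lies within another, but the ends of TCACNCCAC and CACGTG can overlap. TCACNCCAC was found in 1 of the 18 measured genes (Hmgcs1) and in 1.22% of 27025 genes with a window. Other forms of the sterol regulatory element were not searched, so a window without a match may still hold one. CCAAT was found in 15 of 18, against 37.5% of all genes, and CACGTG in 5 of 18, against 6.86%. CCAAT was present in 8 of the 9 genes with a window that were lower without overlap on the deposited scale, and in 7 of the 8 that overlapped. A match is a description of letters and not a bound site.

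The windows printed are those of the lowest differences (Cyp51, Insig1, Idi1), of the differences nearest 0 (Ebp, Mvk) and of Hmgcs1, with all 3 motifs in capitals on either strand. They are Cyp51 (chr5:4104698-4104947, minus strand), Insig1 (chr5:28071162-28071411, plus), Idi1 (chr13:8885356-8885605, plus), Hmgcs1 (chr13:119690101-119690350, plus), Ebp (chrX:8193513-8193762, minus) and Mvk (chr5:114444019-114444268, plus).
Cyp51: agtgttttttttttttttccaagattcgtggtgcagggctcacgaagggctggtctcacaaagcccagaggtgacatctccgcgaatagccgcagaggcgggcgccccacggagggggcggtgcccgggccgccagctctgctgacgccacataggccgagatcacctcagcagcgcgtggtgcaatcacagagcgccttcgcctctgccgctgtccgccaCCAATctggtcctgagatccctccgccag
Insig1: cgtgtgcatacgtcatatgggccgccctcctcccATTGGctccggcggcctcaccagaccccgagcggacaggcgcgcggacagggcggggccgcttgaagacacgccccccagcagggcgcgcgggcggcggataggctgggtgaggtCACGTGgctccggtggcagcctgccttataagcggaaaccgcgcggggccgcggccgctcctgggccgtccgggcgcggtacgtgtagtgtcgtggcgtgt
Idi1: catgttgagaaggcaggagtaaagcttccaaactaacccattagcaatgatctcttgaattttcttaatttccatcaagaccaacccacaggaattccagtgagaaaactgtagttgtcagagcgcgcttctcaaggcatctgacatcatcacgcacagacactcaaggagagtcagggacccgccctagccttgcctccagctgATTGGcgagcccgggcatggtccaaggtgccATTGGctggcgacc
Hmgcs1: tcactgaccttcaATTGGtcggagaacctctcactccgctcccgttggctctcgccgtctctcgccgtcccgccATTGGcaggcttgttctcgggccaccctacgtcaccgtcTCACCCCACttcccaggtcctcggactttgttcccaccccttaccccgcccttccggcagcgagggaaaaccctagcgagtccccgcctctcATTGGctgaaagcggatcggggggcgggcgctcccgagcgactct
Ebp: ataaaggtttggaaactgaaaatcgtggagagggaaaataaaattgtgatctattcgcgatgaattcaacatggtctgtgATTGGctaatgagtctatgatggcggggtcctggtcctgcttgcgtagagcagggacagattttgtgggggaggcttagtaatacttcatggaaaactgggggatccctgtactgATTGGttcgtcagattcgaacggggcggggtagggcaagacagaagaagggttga
Mvk: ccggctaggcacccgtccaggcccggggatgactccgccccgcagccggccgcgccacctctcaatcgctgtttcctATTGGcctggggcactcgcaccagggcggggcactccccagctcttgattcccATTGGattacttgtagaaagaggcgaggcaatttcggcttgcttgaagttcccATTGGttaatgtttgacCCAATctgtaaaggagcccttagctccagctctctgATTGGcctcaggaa
Of the motifs searched, Cyp51 holds a single CCAAT, 29 bases before the start, and Mvk holds 5 of the same motif. Insig1 holds 1 CCAAT and 1 CACGTG, and the TCACNCCAC match of Hmgcs1 begins 137 bases before the start.

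Other genes of lipid metabolism, from lists that do not contain the 23, had medians nearer 0 on the deposited scale. Of 20 further synthesis enzymes and SREBP regulators 18 were measured. None passed limma (3 at an unadjusted p under 0.05), 6 were lower without overlap, none was higher without overlap, and the median was -0.12 (0.00 after quantile normalization). The lower count is near the 31.4% of all genes lower without overlap, and the unadjusted count near their 14.1%. The median was 0.015 without TG mouse 1 and -0.26 without TG mouse 2. By smallest p these were Hsd17b12, an elongation-cycle reductase (8.89 and 9.06 on the TG arrays, against 9.33 and 9.37 on the WT arrays), Tmem97, a sterol-regulated membrane protein (-0.46), Lbr, a sterol reductase of the nuclear envelope (-0.39), and Elovl1, an elongase of very long chains (-0.41).

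Genes of cholesterol uptake, transport, efflux and sensing had a median of 0.00 over 10 measured of 15, with 2 lower and 4 higher without overlap and none past limma (0 at an unadjusted p under 0.05). Npc2 and Npc1, which export cholesterol from lysosomes, differed by 0.26 and -0.25. Nr1h3, a nuclear receptor for oxysterols, differed by 0.19, and Mylip, the ubiquitin ligase that lowers the LDL receptor, by -0.21. Fatty acid oxidation genes had a median of -0.15 over 11 measured of 14, with 4 lower and 1 higher without overlap and none past limma (1 at an unadjusted p under 0.05). In that list Cpt2, a carnitine palmitoyltransferase of mitochondria, had 5.67 and 5.91 on the TG arrays, against 6.50 and 6.41 on the WT arrays (-0.67, limma adjusted p = 0.185), and Hadhb differed by -0.26, Slc25a20 by -0.35 and Acadl by -0.16. Cell division genes, which mark growing cells, had a median of -0.21 over 9 measured of 10, with 2 lower and 1 higher without overlap and none past limma (0 at an unadjusted p under 0.05). Mcm5 and Mcm3 of the replication helicase differed by -0.36 and -0.45, Cdk1 by -0.30 and Tyms, thymidylate synthase, by 0.26. After quantile normalization the medians of these 3 lists were 0.13, 0.02 and 0.02, so their directions rest on the scale. Over all genes 31.4% were lower and 17.7% higher without overlap, and the lower counts of the oxidation and division lists are near that share. These medians also rested on single mice: they were 0.11, -0.01 and 0.04 without TG mouse 1, and -0.13, -0.25 and -0.52 without TG mouse 2.

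**Figure D3:**
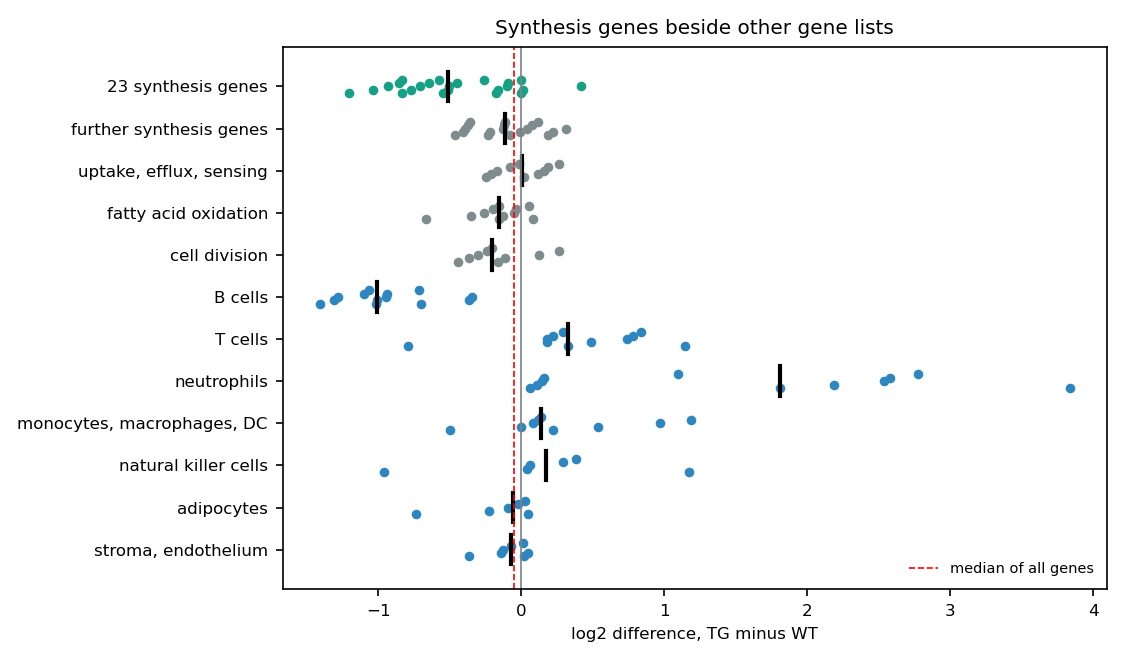
Log2 difference, TG minus WT, on the deposited scale (horizontal axis) for the 23 synthesis genes and 11 other gene lists, 1 point per gene, with list medians as black bars and the median of all genes (-0.05) as a dashed line. The bar of the synthesis genes lies at -0.51, that of the B cell markers at -1.01 and that of the neutrophil markers at 1.81; centred on B cell markers the synthesis genes' median is 0.42.

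Cell type markers also differed between the groups. B cell markers were present on all arrays, and 13 of 13 measured of 14 listed were lower without overlap on the TG arrays, against 31.4% of all genes. Their median was -1.01 as deposited and -0.89 after quantile normalization. Their mean signal was 8.77 and 8.96 on the TG arrays, against 9.79 and 9.82 on the WT arrays, and Blk (-1.31), Btk (-1.07), Fcer2a (-1.02) and Pou2af1 (-1.10) had the smallest p. None of the 13 passed limma as deposited (12 at an unadjusted p under 0.05, against 14.1% of all genes). In bulk RNA, fewer B cells and less of a transcript per B cell cannot be told apart.

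T cell markers, also present on WT arrays, had a mean of 9.95 and 10.15 on the TG arrays, against 9.62 and 9.67 on the WT arrays, with 10 of 11 higher and 1 lower without overlap. Cd8a differed by 1.14, Cd8b1 by 0.74, Thy1 by 0.49 and Cd4 by -0.79. Neutrophil markers had a mean of 6.31 and 6.66 on the TG arrays, against 4.92 and 4.91 on the WT arrays, with 10 of 11 higher without overlap. Chil3 (3.83) and Ngp (2.77) passed limma (adjusted p = 0.0219 for each), and S100a9 and S100a8 differed by 2.53 and 2.58. The neutrophil markers did not move alike: their differences ran from 0.06 to 3.83. Of the 11, 7 had an unadjusted limma p under 0.05, against 14.1% of all genes. Monocyte, macrophage and dendritic cell markers had a mean of 5.74 and 5.93 on the TG arrays, against 5.50 and 5.55 on the WT arrays. Without overlap 5 of 9 were higher and 1 lower, and over all genes 17.7% were higher and 31.4% lower. There Ccr2 differed by 1.19, Cd14 by 0.97, Lyz2 by 0.53 and Itgax by -0.50, and Itgam lay at background.

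Natural killer cell markers had a mean of 7.23 and 7.56 on the TG arrays, against 7.21 and 7.26 on the WT arrays, with Eomes at 1.18, Nkg7 at 0.38, Klrk1 at 0.29 and Gzma at -0.96. Of the adipocyte markers, Adipoq, Lep and Fabp4 lay under the background ceiling in mean signal, and Lipe, Retn and Lpl above it. The mean of the 6 measured adipocyte markers was 3.86 and 4.12 on the TG arrays and 4.14 and 4.17 on the WT arrays, with Lipe at -0.73, Retn at -0.10, Adipoq at -0.22 and Lep at 0.05. Of 7 stromal and endothelial markers, Col1a1, Col1a2, Col3a1 and Pdpn lay at background, the list mean was 4.02 and 4.10 on the TG arrays and 4.10 and 4.19 on the WT arrays, and Pecam1 differed by -0.36, Cdh5 by -0.14, Pdpn by -0.13 and Col1a1 by -0.07. No marker of T cells, monocytes and related cells, natural killer cells, adipocytes or stroma passed limma as deposited, and 8, 3, 2, 1 and 1 of them had an unadjusted p under 0.05, against 14.1% of all genes. The counts without overlap stand against 17.7% higher and 31.4% lower over all genes. Without TG mouse 1 and without TG mouse 2, the median was 0.30 and 0.08 for monocytes and related cells, 0.42 and 0.005 for natural killer cells, -0.02 and -0.30 for adipocytes, and 0.02 and -0.15 for stroma. The medians of T cell, neutrophil, monocyte and natural killer markers stayed above 0 under all 5 scalings. Each centring raised every difference, so these medians could have turned only after quantile normalization. There they were 0.459, 1.965, 0.307 and 0.384, in that order. The medians of adipocyte and stromal markers did not keep their sign (-0.06 and -0.07 as deposited, 0.88 and 0.86 centred on B cell markers). The part of B cell, T cell and myeloid RNA in the values of the synthesis genes was not tested.

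**Figure D4:**
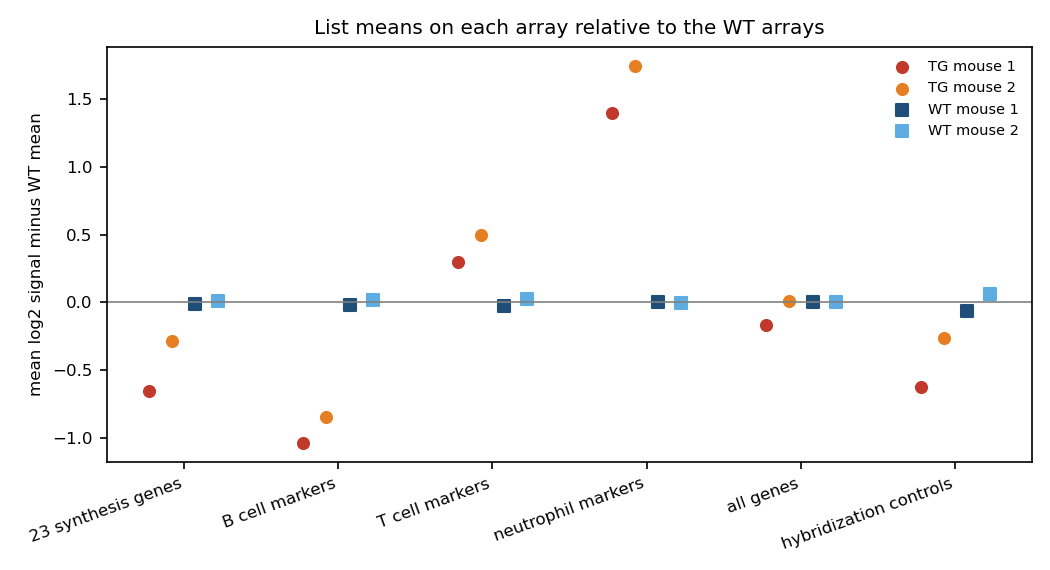
Mean log2 signal of gene lists on each array minus the mean of the WT arrays (vertical axis), for the 23 synthesis genes, marker lists, all genes and the 18 hybridization control probe sets, TG circles left of WT squares. The synthesis genes, the B cell markers and the hybridization controls lie below the WT arrays in both TG mice as deposited, lowest in TG mouse 1, and the T cell and neutrophil markers lie above.

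The scalings were compared gene by gene. Centred on B cell markers, 21 of the 23 synthesis genes had a difference above 0 and 14 passed limma as higher, where 93.8% of all probe sets did. Cyp51 (-0.27) and Insig1 (-0.10) stayed below 0 by their brightest probe sets, but neither passed limma there (adjusted p = 0.151 and 0.545). As deposited, the second probe set of Cyp51 differed by -0.84 and the mean of its probe sets by -0.71, against -0.94 for the B cell marker mean. A drop beyond that of the B cell markers was thus not shown for either gene. Centred on the hybridization controls, 14 genes lay below 0 and 9 above, Cyp51 and Insig1 (-0.59, limma adjusted p = 0.0254) passed as lower, where 1.19% of all probe sets did, and Elovl6 as higher, where 28.7% did. The tests after either centring carry no error for the constant itself, which is the same for every probe set. With the hybridization controls, limma also gave all 23 genes the same SE of 0.207. The p-values of that fit thus hold no spread particular to a gene. Counts also rested on single arrays: 11 synthesis genes passed without TG mouse 1 (9.19% of all probe sets) and 19 without TG mouse 2 (42.4%), but none without either WT mouse. In those fits the lone mouse is assumed to vary as the remaining pair did, and the SD of the difference within a pair, over probe sets, was 0.32 for the TG arrays and 0.12 for the WT arrays. The fits without a TG mouse share the same WT pair and take their spread from it, so they are not independent of each other. The median difference of the 23 genes was -0.29 without TG mouse 1 and -0.65 without TG mouse 2.

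**Figure D5:**
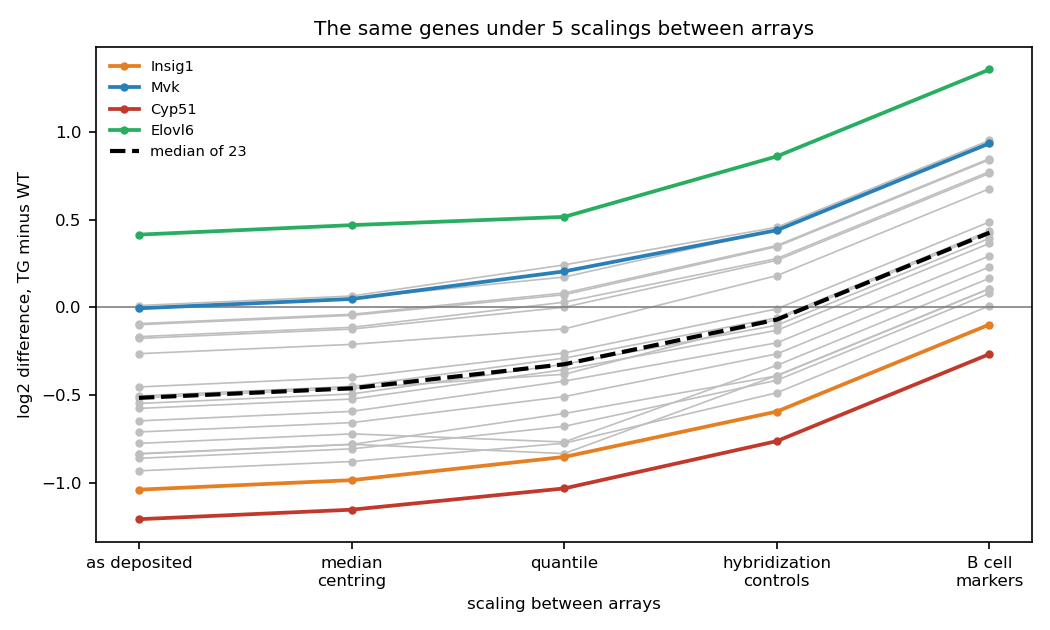
Log2 difference, TG minus WT (vertical axis), of each of the 23 genes under 5 scalings between arrays, with 4 genes in colour, the others in grey and the median dashed. The median is -0.51 as deposited and 0.42 centred on B cell markers, while Cyp51 and Insig1 stay below 0 and Elovl6 stays above 0 under all 5. Each centring raises every gene by the same amount, so only quantile normalization could have turned the sign of Elovl6. Centred on B cell markers, neither Cyp51 nor Insig1 passed limma.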

How the data were processed

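Lymph node B cell RNA of 2 TG and 2 WT mice was amplified, labelled with biotin and measured on Affymetrix arrays, per the labels' protocols. The authors deposited log2 signals, 1 for each of 45141 probe sets on each array. The scale was read from the values (2.01 to 13.03), and background correction, normalization and summary are not given in the sources used here. Having 4 arrays limits the precision.

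Groups came from the sample titles. Probe sets were named through the platform's annotation (28898 with 1 gene, 551 with several, 15692 with none, controls included), of which 28689 matched RefSeq genes of GRCm38.p6 by Entrez ID. After 104 control probe sets were set aside, 45037 were tested with limma 3.58.1 in R 4.3.3 (two-sided, Benjamini-Hochberg, threshold 0.05), and the fit was tested on simulated data. Every adjusted p is over all probe sets of its fit. With 2 mice against 2, a permutation test of 1 gene cannot reach a small p.

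Same-numbered mice did not deviate together (correlation 0.01 across probe sets), so no pairing was used. The 27 genes, the other lists, the motifs and the tests were chosen with earlier results of these data known. The text names all 27 genes and at most 4 genes of each other list, by smallest limma p. Genes at background, genes not measured, and those picked for the order within the pathway were named after their values were seen. Alternatives were quantile normalization, centring on the median, on B cell markers or on hybridization controls (the last added after seeing the data), a filter on dim probe sets, a trended and robust eBayes, a replicate block, averaging every probe set of a gene, an adjusted p of 0.1, and leaving out each array. Figures were drawn with matplotlib 3.10.9.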

Additional observations from a re-analysis of the deposited data

How the results depend on the processing

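No synthesis gene passed limma as deposited, after the filter on dim probe sets (21 genes kept), with a trended and robust eBayes, averaging every probe set of a gene, or at an adjusted p of 0.1. Quantile normalization called 3 lower (1.04% of all probe sets), median centring 1 lower (0.944%), centring on hybridization controls 2 lower (1.19%) and 1 higher (28.7%), and centring on B cell markers 14 higher (93.8%); leaving out each array gave 0 to 19. Their median was -0.51 as deposited, -0.32 after quantile normalization, 0.42 centred on B cell markers, -0.069 centred on hybridization controls, and -0.65 to -0.29 with an array left out. With the replicate block, 15 probe sets and 0 synthesis genes passed and the median was -0.51, and the block changed no call of a synthesis gene. The mouse numbers are labels only (correlation 0.01).

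Over all probe sets 21 passed as deposited (17 higher, 4 lower), 870 after quantile normalization (402 higher, 468 lower), 614 after median centring (189 higher, 425 lower), 42353 centred on B cell markers (42225 higher, 128 lower), 13456 centred on hybridization controls (12918 higher, 538 lower), 51 after the dim filter (38 higher, 13 lower), 139 at an adjusted p of 0.1 (65 higher, 74 lower), and 0 to 19110 with an array left out. Of 111 measured genes of the other lists, 2 passed as deposited, 23 after quantile normalization, 17 after median centring, 98 centred on B cell markers, 51 centred on hybridization controls, 4 after the dim filter (99 kept), 7 averaging every probe set of a gene, and 0 to 61 with an array left out.

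Signs turned for single genes as follows. Centred on B cell markers the differences were Srebf2 0.08, Scap 0.84, Hmgcs1 0.11, Mvk 0.93, Mvd 0.68, Idi1 0.009, Fdps 0.49, Fdft1 0.29, Sqle 0.11, Lss 0.17, Msmo1 0.36, Nsdhl 0.85, Ebp 0.94, Sc5d 0.77, Dhcr7 0.23, Stard4 0.39, Acaca 0.44, Fasn 0.76 and Scd1 0.42. Centred on hybridization controls they were Scap 0.35, Mvk 0.44, Mvd 0.18, Nsdhl 0.35, Ebp 0.44, Sc5d 0.28 and Fasn 0.27. After quantile normalization they were Scap 0.072, Mvk 0.20, Nsdhl 0.082, Ebp 0.17, Sc5d 0.03 and Fasn 0.001, and after median centring Mvk 0.048 and Ebp 0.052. Averaging every probe set of a gene, the difference was Hsd17b7 -0.091. With an array left out the differences ran for Scap between -0.225 and 0.028, Mvk between -0.043 and 0.032, Mvd between -0.62 and 0.094, Hsd17b7 between -0.093 and 0.116, Ebp between -0.268 and 0.264, Sc5d between -0.39 and 0.057 and Fasn between -0.358 and 0.006. Centring adds 1 constant per array by construction; otherwise the cause was not tested. Values near the background ceiling (Hmgcs1 and Lss in TG mouse 1) limit the size of those differences.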
